A study of Mus musculus with 9 samples.

Results

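Kdr, Flt1, Nrp1, Nrp2, Vegfa and Vegfb were followed across 9 libraries of sorted mouse dendritic cells. These 6 genes, of 40879 gene symbols counted, encode 2 receptors for vascular endothelial growth factor (VEGF), both neuropilins and 2 VEGF ligands, and were found by exact match of the gene symbol. The cells were conventional type 2 dendritic cells (cDC2s) isolated by flow cytometry from mouse bone marrow grown for 9 days with 100 ng/ml recombinant human Flt3L, the cytokine that drives dendritic cell development. Each group held 3 libraries, made with a kit that reads the 3′ end of each transcript. The A20iKO group is labelled with the genotype A20fl/fl x CD11ccre. This pairs floxed alleles of A20, the NF-kB-limiting enzyme encoded by Tnfaip3, with a Cre driven by CD11c, a promoter that dendritic cells share with other myeloid cells. The WT+IFNa group was wild type and given interferon alpha (IFNa) on day 5, and the WT group was wild type with no treatment named in its titles. One protocol entry names IFNa for every library, so the absence of IFNa in the A20iKO and WT cultures rests on the titles and the treatment labels. The series states 3 mice per group, and where libraries of a group share a source the p-values measure only the spread between these libraries.

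VEGF ligands bind receptor tyrosine kinases on target cells. KDR (VEGFR2) is the main signalling receptor for VEGF-A and is best known from blood vessel endothelium, and FLT1 (VEGFR1) binds VEGF-A, VEGF-B and placental growth factor and can act as a decoy. Neuropilins are co-receptors that bind VEGF and class 3 semaphorins and pair with KDR or with plexins. In the dendritic cell lineage NRP1 is known from plasmacytoid dendritic cells and from contacts with T cells, and NRP2 carries polysialic acid on mature dendritic cells.

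All 6 genes passed the filter on low counts, which kept 13251 genes. The 6 genes were chosen by their levels in these same libraries, compared over the 3 groups, so all 3 comparisons count as used. The fold changes and adjusted p-values of the 6 genes are therefore a description of these libraries and support nothing further. Between A20iKO and WT 3 of the 6 passed the edgeR threshold (Benjamini-Hochberg adjusted p under 0.05), against 10.7% of all genes tested: 2 were higher, against 5.77% of all genes, and 1 was lower, against 4.91%. Between WT+IFNa and WT 1 of the 6 passed, against 3.1% of all genes: it was higher, against 2.4%, and none was lower, against 0.702%. Between A20iKO and WT+IFNa 1 of the 6 passed, against 5.46%: it was higher, against 2.05%, and none was lower, against 3.41%. The median absolute log2 fold change of the 6 genes was 0.71, 0.75 and 0.50 in these comparisons, and 0.49, 0.37 and 0.41 over all genes tested. Both comparisons with WT share the same 3 WT libraries. Levels are given as CPM, the read count scaled to library size with TMM factors. A value after ± is an SD over 3 libraries, and a standard error is marked SE.

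The promoters of Kdr, Nrp2 and Nrp1 are shown because these are the 3 genes past the threshold. RefSeq sequence of build GRCm38.p6 was matched by symbol for all 6 genes, and each window runs from 250 bases before to 50 bases after a transcription start. The windows are chr5:75978406-75978705 on the minus strand for Kdr, chr1:62703067-62703366 on the plus strand for Nrp2 and chr8:128358823-128359122 on the plus strand for Nrp1. Capitals mark matches, on either strand, to a loose NF-kB motif of GGG, any 5 bases and CC.
Kdr: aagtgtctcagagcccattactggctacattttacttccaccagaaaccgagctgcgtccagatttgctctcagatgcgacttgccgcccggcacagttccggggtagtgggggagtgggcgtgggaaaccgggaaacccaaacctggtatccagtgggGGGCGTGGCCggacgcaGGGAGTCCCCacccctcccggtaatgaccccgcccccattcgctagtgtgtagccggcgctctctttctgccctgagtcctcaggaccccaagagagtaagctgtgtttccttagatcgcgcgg
Nrp2: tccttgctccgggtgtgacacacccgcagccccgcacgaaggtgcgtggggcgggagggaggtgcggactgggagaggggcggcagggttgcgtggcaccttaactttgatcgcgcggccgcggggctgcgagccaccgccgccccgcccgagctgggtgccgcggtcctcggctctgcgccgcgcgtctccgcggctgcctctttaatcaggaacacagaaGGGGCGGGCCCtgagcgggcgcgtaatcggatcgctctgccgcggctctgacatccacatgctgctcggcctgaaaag
Nrp1: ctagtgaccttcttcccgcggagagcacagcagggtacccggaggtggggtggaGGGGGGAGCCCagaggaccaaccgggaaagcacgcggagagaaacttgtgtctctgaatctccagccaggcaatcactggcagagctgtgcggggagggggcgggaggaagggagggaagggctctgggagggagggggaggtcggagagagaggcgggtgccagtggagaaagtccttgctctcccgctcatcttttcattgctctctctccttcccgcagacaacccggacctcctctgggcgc
In Kdr the matches lie at bases -91 to -82 and -74 to -65 from the start, the second of them on both strands. In Nrp2 overlapping matches cover bases -28 to -18, and in Nrp1 bases -196 to -186. The same motif was found in 50.8% of 32851 RefSeq promoter windows of this length, so it is common in promoters of any gene. Windows of Flt1, Vegfa and Vegfb, which were not past the threshold, held it too, so it was in all 6 genes. The interferon-stimulated response element, searched on both strands as GAAA, any 2 bases and GAAA, was present in 3.44% of windows and in none of these 3. The gamma-activated site, searched as TTC, any 3 bases and GAA, was present in 8.3% of windows and the hypoxia response core ACGTG in 19.6%, on either strand, and neither was in these 3 windows. Vegfa, with 2 start sites, held 1 match to the interferon element in its first window and 1 to the hypoxia core in its second.

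Total counts were 7187359 to 9518822 in A20iKO, 7041519 to 10246810 in WT+IFNa and 6900598 to 10552756 in WT. A single predicted gene, Gm26917, took up a large part of them, at 129460 ± 12055, 156040 ± 35087 and 73222 ± 39299 CPM in the same groups. The effect of leaving this gene out was not tested. Tnfaip3 held 285, 476 and 377 counts in the A20iKO libraries, 73, 84 and 74 in WT+IFNa and 232, 51 and 42 in WT. The deleted exons are not named in the labels, so 3′ reads of Tnfaip3 cannot check the deletion. All 13 cDC2 markers listed passed the filter, of which 2 were higher and 8 lower in A20iKO over WT, and their summed level was 4689 to 5283 CPM in A20iKO, 6546 to 7486 in WT+IFNa and 8814 to 11470 in WT. Most of this sum was 1 gene, H2-Ab1, at 3809 ± 215, 5392 ± 376 and 8502 ± 1116 CPM in the same groups. Other markers in the list differed more: Cd209a was at 11 ± 4.33, 114 ± 19.5 and 331 ± 64.1 CPM, and Clec10a at 104 ± 7.8, 484 ± 65 and 516 ± 129 CPM. Sirpa went the other way, at 456 ± 32.5, 198 ± 2.34 and 170 ± 39.6 CPM. Stromal transcripts stood apart in 1 library of each group: 20 stromal markers summed to 4567 CPM in A20iKO replicate 1, 4913 in WT+IFNa replicate 3 and 4779 in WT replicate 2, whereas the other libraries held 494 to 2428 CPM.

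Kdr was higher in both A20iKO and WT+IFNa cDC2s than in WT. Its level was 148, 144 and 114 CPM in the A20iKO libraries, 206, 165 and 166 CPM in the WT+IFNa libraries, and 21.4, 6.15 and 6.3 CPM in the WT libraries. Every A20iKO and WT+IFNa library lay above every WT library, and WT replicate 1 stood above the other WT libraries. The group means were 135 ± 18.5 CPM in A20iKO, 179 ± 23.4 in WT+IFNa and 11.3 ± 8.75 in WT. The log2 fold change was 3.57 in A20iKO over WT (SE 0.406; edgeR Benjamini-Hochberg adjusted p = 7.84e-05). The same value was 3.97 in WT+IFNa over WT (SE 0.412; edgeR adjusted p = 6.54e-05). Without WT replicate 1 these values were 4.45 and 4.84. WT replicate 1 also had the highest Tnfaip3 level of the WT libraries, 22.8 CPM against 6.82 and 4.27. In bulk libraries fewer cells of a type and less RNA per cell cannot be told apart, so a level is an average over the sorted cells.

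Between A20iKO and WT+IFNa, the libraries of Kdr did not overlap, A20iKO being the lower. The log2 fold change was -0.41 (SE 0.36; edgeR adjusted p = 0.715), so the order of these neighbouring groups was not past the threshold, which does not show that they are alike. The order of levels for Kdr was thus WT+IFNa, A20iKO and WT, and the steps between WT and the other groups passed the threshold. Without the 3 libraries of highest Col1a1, 1 in each group, the Kdr log2 fold change was 3.22 in A20iKO over WT and 3.74 in WT+IFNa over WT, with edgeR adjusted p = 0.00095 and 0.000813.

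**Figure D1:**
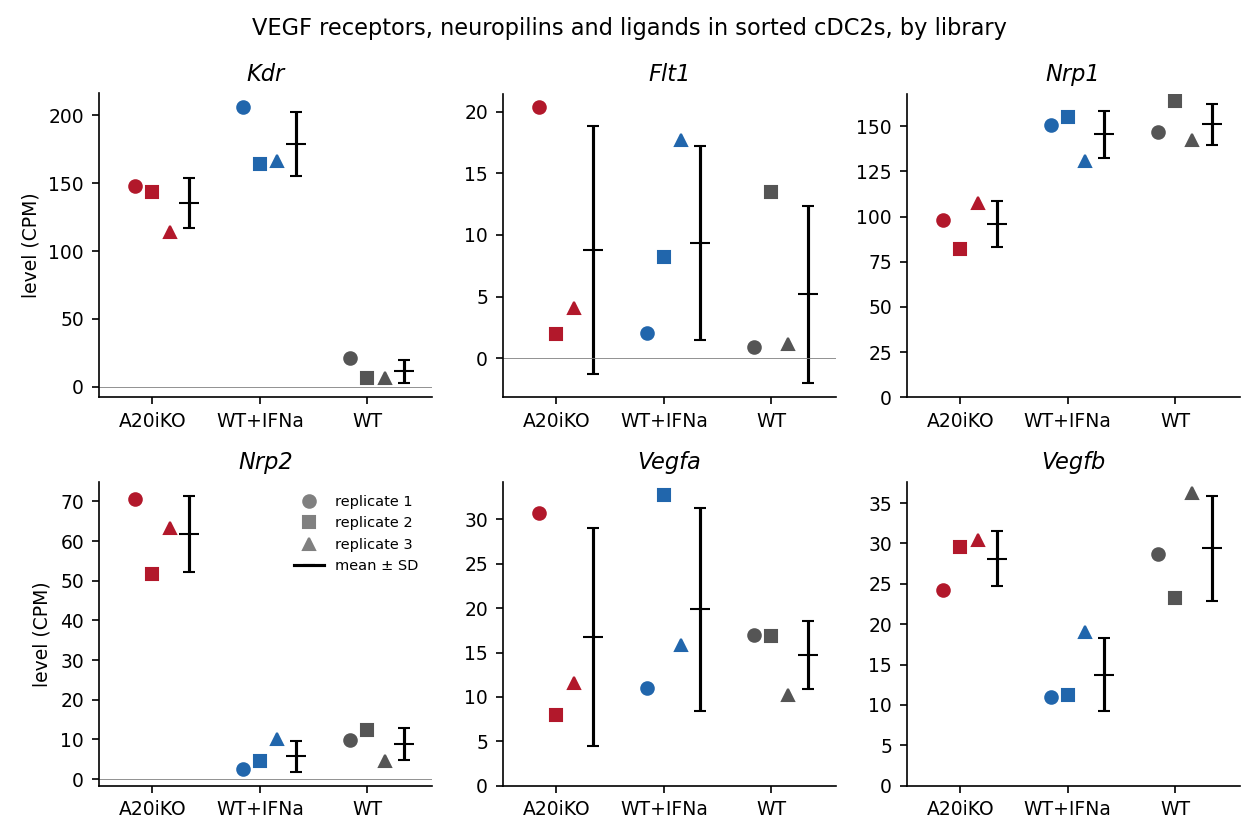
Levels of the 6 genes (CPM, vertical axis) in each of 9 libraries, by group (A20iKO, WT+IFNa, WT); points are libraries, and the black marks are group means with SD over 3 libraries. Kdr is at 114 CPM or more in all A20iKO and WT+IFNa libraries and at 21.4 CPM or less in WT, whereas Nrp2 is high in A20iKO alone of the 3 groups.

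Markers of other cells moved as well. Of 20 endothelial markers 13 were tested. Against WT, 2 were higher in A20iKO, and in WT+IFNa none passed by edgeR or DESeq2, with 2 at an unadjusted p under 0.05. The 20 markers summed to 89.9 to 195 CPM in A20iKO, 116 to 137 in WT+IFNa and 76.6 to 104 in WT. Pecam1, an adhesion molecule also carried by leukocytes, made up most of this sum on average in WT+IFNa and WT, but not in A20iKO. It was at 56.5 ± 16.1 CPM in A20iKO, 101 ± 9.54 in WT+IFNa and 67.6 ± 13.3 in WT. Cdh5, the endothelial cadherin, was at 3.09 ± 2.34, 0.914 ± 0.916 and 0.701 ± 0.107 CPM in the same groups, and Tek, the angiopoietin receptor, at 0.19, 0.0726 and 0.0677 CPM. Robo4 and Stab2 had no count in WT+IFNa and Stab2 none in WT. The median log2 fold change of the 13 was 2.12 in A20iKO over WT and 0.38 in WT+IFNa over WT, and DESeq2 called 4 of them higher in A20iKO over WT. Esam, which is in the list of cDC2 markers as well, was at 6.27 ± 6.52 CPM in A20iKO, 1.57 ± 0.891 in WT+IFNa and 0.524 ± 0.201 in WT. Robo4 held 48 counts in A20iKO, all in 1 library, and 2 in WT. Of 15 monocyte and macrophage markers, 11 were higher and 1 lower in A20iKO over WT, and 4 were higher and 1 lower in WT+IFNa over WT. Their sum was 2864 to 3190 CPM in A20iKO, 2433 to 2967 in WT+IFNa and 1234 to 1517 in WT. A large part of the rise was 1 gene, Ly6c2, at 741 ± 115, 679 ± 103 and 26 ± 10.7 CPM in the same groups. Adgre1 was highest in WT, at 37.1 ± 2.73, 38.4 ± 13.3 and 92.5 ± 28.7 CPM. Ccr2 was lowest in A20iKO, at 567 ± 91.3, 1065 ± 212 and 773 ± 103 CPM. Of 11 plasmacytoid dendritic cell markers tested, 7 were higher and 3 lower in A20iKO over WT, and 3 were higher and none lower in WT+IFNa over WT. Their sum was 1100 to 1442 CPM in A20iKO, 1193 to 1402 in WT+IFNa and 907 to 1056 in WT. Siglech, a defining marker of that type and 1 of the 3 lower ones, was at 63 ± 13.6 CPM in A20iKO, 159 ± 28.3 in WT+IFNa and 242 ± 29.4 in WT. Among the 7 higher ones, Ly6d was at 109 ± 40.9, 12.3 ± 1.87 and 5.61 ± 2.5 CPM in the same groups. Tcf4, also among the 7, was at 529 ± 25.4, 394 ± 17.4 and 312 ± 48.8 CPM. Bst2, in the same list, was highest in WT+IFNa, at 163 ± 48.9, 286 ± 67.6 and 70.3 ± 19.7 CPM. Basophil and mast cell markers summed to 246 to 264 CPM in A20iKO, 118 to 197 in WT+IFNa and 53.3 to 90.7 in WT, and neutrophil markers to 270 to 388, 325 to 381 and 100 to 122 CPM. Of 11 neutrophil markers tested, 3 were higher and 2 lower in A20iKO over WT, and 3 were higher and none lower in WT+IFNa over WT. Prtn3 was at 174 ± 39 CPM in A20iKO, 7.2 ± 3.67 in WT+IFNa and 0.594 ± 0.545 in WT. S100a9 went the other way in A20iKO, at 4.85 ± 1.46, 157 ± 18.5 and 47.8 ± 0.173 CPM in the same groups. Markers of cDC1s summed to 727 to 939 CPM in A20iKO, 1304 to 1509 in WT+IFNa and 1585 to 1936 in WT, and lymphocyte and megakaryocyte markers to at most 28.2 and 10.1 CPM in any library. The part of these other cells in the levels of Kdr, Nrp1 and Nrp2 was not tested.

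The genes nearest to Kdr in pattern were found by Pearson correlation of log2 (CPM + 1) over the 9 libraries, among 9581 genes of at least 5 CPM on average. They were Shfl, an antiviral frameshifting inhibitor (r = 0.984), Ramp3, an accessory protein of the adrenomedullin receptor (r = 0.983), Lgals3bp, a secreted galectin-binding glycoprotein (r = 0.982), Plac8 (r = 0.98) and Tapbpl, a peptide editor of MHC class I (r = 0.978). These correlations describe 9 libraries that fall into 3 groups and are not independent points. Plac8 was at 1133 ± 140 CPM in A20iKO, 1350 ± 175 in WT+IFNa and 133 ± 25.1 in WT. Ramp3 was at 25.6 ± 4.65, 26.5 ± 6.11 and 1.06 ± 1.13 CPM in the same groups.

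Nrp2 was higher in A20iKO than in either other group. Its level was 70.6, 51.6 and 63.3 CPM in the A20iKO libraries, 2.51, 4.64 and 10.1 CPM in the WT+IFNa libraries, and 9.81, 12.4 and 4.47 CPM in the WT libraries. The A20iKO libraries lay above all others, while WT+IFNa and WT overlapped. The means were 61.8 ± 9.56 CPM in A20iKO, 5.75 ± 3.92 in WT+IFNa and 8.91 ± 4.06 in WT. The log2 fold change was 2.80 in A20iKO over WT (SE 0.491; edgeR adjusted p = 0.0022) and 3.44 in A20iKO over WT+IFNa (SE 0.509; edgeR adjusted p = 0.00128). The second value was 4.12 without WT+IFNa replicate 3, 1 of the libraries of high stromal transcripts. WT+IFNa over WT gave -0.64 (SE 0.482; edgeR adjusted p = 0.681). Without the 3 libraries of highest Col1a1, the log2 fold change of Nrp2 was 3.01 in A20iKO over WT and 4.00 in A20iKO over WT+IFNa.

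The genes nearest to Nrp2 in pattern were F10, coagulation factor X (r = 0.982), Cd79b, a chain of the B cell receptor complex (r = 0.969), Pilra, an inhibitory immunoglobulin-like receptor (r = 0.961), the adhesion receptor gene Adgrl1 (r = 0.961) and Rab30, a Golgi GTPase (r = 0.956). F10 was at 42 ± 14 CPM in A20iKO, 1.05 ± 1.12 in WT+IFNa and 1.09 ± 1.02 in WT. Pilra was at 33.4 ± 7.96, 0.347 ± 0.601 and 0.334 ± 0.406 CPM in the same groups.

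**Figure D2:**
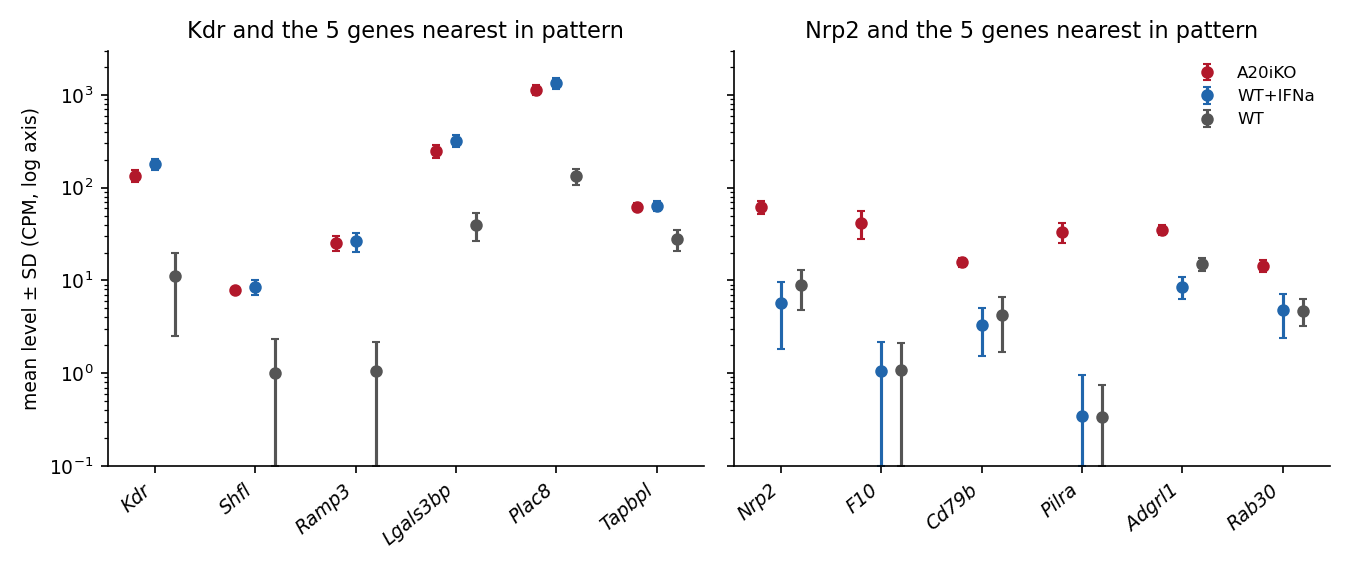
Mean level with SD over 3 libraries (CPM, log axis; bars that reach below the axis end at its lower limit) for Kdr and Nrp2, each with the 5 genes of highest correlation over the 9 libraries. The genes beside Kdr are low in WT only, and those beside Nrp2 are high in A20iKO only, by the way they were chosen.

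Nrp1 was lower in A20iKO, by a smaller step. Its level was 97.9, 82.3 and 108 CPM in the A20iKO libraries, 151, 155 and 131 CPM in the WT+IFNa libraries, and 147, 164 and 142 CPM in the WT libraries. The A20iKO libraries lay below all others, and WT+IFNa and WT overlapped. The means were 96 ± 12.9 CPM in A20iKO, 146 ± 13 in WT+IFNa and 151 ± 11.4 in WT. For A20iKO over WT the log2 fold change was -0.66 (SE 0.164; edgeR adjusted p = 0.0209). The call was lost without A20iKO replicate 2 (edgeR adjusted p = 0.12), without WT replicate 2 (0.0558) and without the 3 libraries of highest Col1a1 (0.066). Over WT+IFNa the log2 fold change of A20iKO was -0.60 (SE 0.164; edgeR adjusted p = 0.0517). It passed in only 3 of 18 alternative settings: with DESeq2 (adjusted p = 0.0169), with stromal level as a covariate in edgeR (adjusted p = 0.018) and without WT replicate 2 (edgeR adjusted p = 0.0454). In the other settings it did not pass, with an edgeR adjusted p up to 0.249, reached without A20iKO replicate 2. WT+IFNa over WT gave -0.05 (SE 0.163; edgeR adjusted p = 0.958). The genes nearest to Nrp1 in pattern were Plec, which encodes the linker protein plectin, Tecpr1, Tmem109, Tob2 and S100a10, with r of 0.957 to 0.963.

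The neuropilins thus moved in opposite directions in A20iKO over WT, although the Nrp1 call was lost in some settings. The ratio of their counts does not depend on library scaling. The rise of Nrp2 alone would lower this ratio, so it does not show a fall of Nrp1. There were 1.39, 1.59 and 1.7 counts of Nrp1 per count of Nrp2 in the A20iKO libraries, 60.1, 33.5 and 12.9 in the WT+IFNa libraries, and 15, 13.2 and 31.9 in the WT libraries. The A20iKO ratios lay below all others and within a narrow range, and the other groups overlapped. A 3′ tag count does not grow with transcript length, although capture and mapping can differ between genes. Of the 6 genes, 3 had A20iKO libraries that did not overlap with WT, as did 28% of all genes: Kdr and Nrp2 lay above, as did 15.4% of all genes, and Nrp1 below, as did 12.6%.

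**Figure D3:**
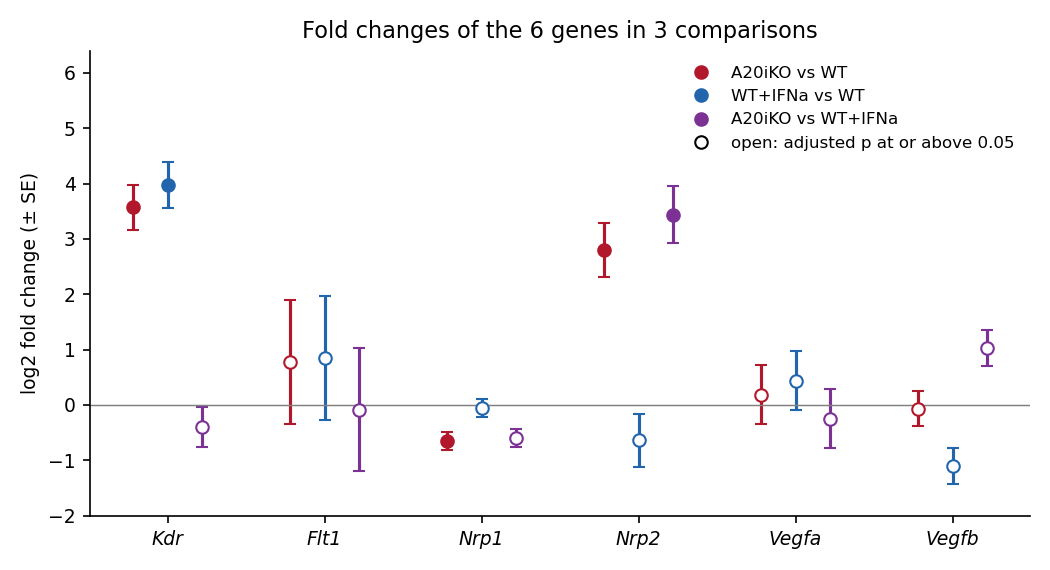
Log2 fold changes with SE of the 6 genes in the 3 comparisons, from the edgeR fit of 9 libraries; filled points have an adjusted p under 0.05. Kdr is filled in both comparisons with WT, Nrp2 in both comparisons of A20iKO, and Nrp1 in A20iKO over WT.

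Flt1 was low and uneven in every group. Its level was 20.4, 1.93 and 4.11 CPM in the A20iKO libraries, 2.07, 8.23 and 17.7 CPM in the WT+IFNa libraries, and 0.883, 13.5 and 1.12 CPM in the WT libraries. In each group the highest library was the one of highest stromal transcripts, and the groups overlapped. The highest Flt1 level was 10.6, 8.54 and 15.3 times the lowest within A20iKO, WT+IFNa and WT, whereas for Kdr this was 1.3, 1.25 and 3.48. The log2 fold change was 0.77 in A20iKO over WT (SE 1.12; edgeR adjusted p = 0.786) and 0.86 in WT+IFNa over WT (SE 1.12; edgeR adjusted p = 0.867). A20iKO over WT+IFNa gave -0.08 (SE 1.11; edgeR adjusted p = 0.993). Without the 3 libraries of highest Col1a1 the Flt1 values were 1.58 in A20iKO over WT, 2.35 in WT+IFNa over WT and -0.77 in A20iKO over WT+IFNa (edgeR adjusted p = 0.573, 0.526 and 0.86). A change of Flt1 was not detectable at this spread. Kdr and Flt1, although both VEGF receptors, did not follow each other: the count of Kdr per count of Flt1 was 7.26, 74.5 and 27.7 in A20iKO, 99.5, 20 and 9.41 in WT+IFNa, and 24.2, 0.455 and 5.64 in WT. The genes nearest to Flt1 in pattern were Dlc1, Mars1, Lrrc42, Rbms3 and Septin7, with r of 0.946 to 0.967. Of 18 stromal markers tested, none passed in any of the 3 comparisons by edgeR or DESeq2, with none at an unadjusted p under 0.05.

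**Figure D4:**
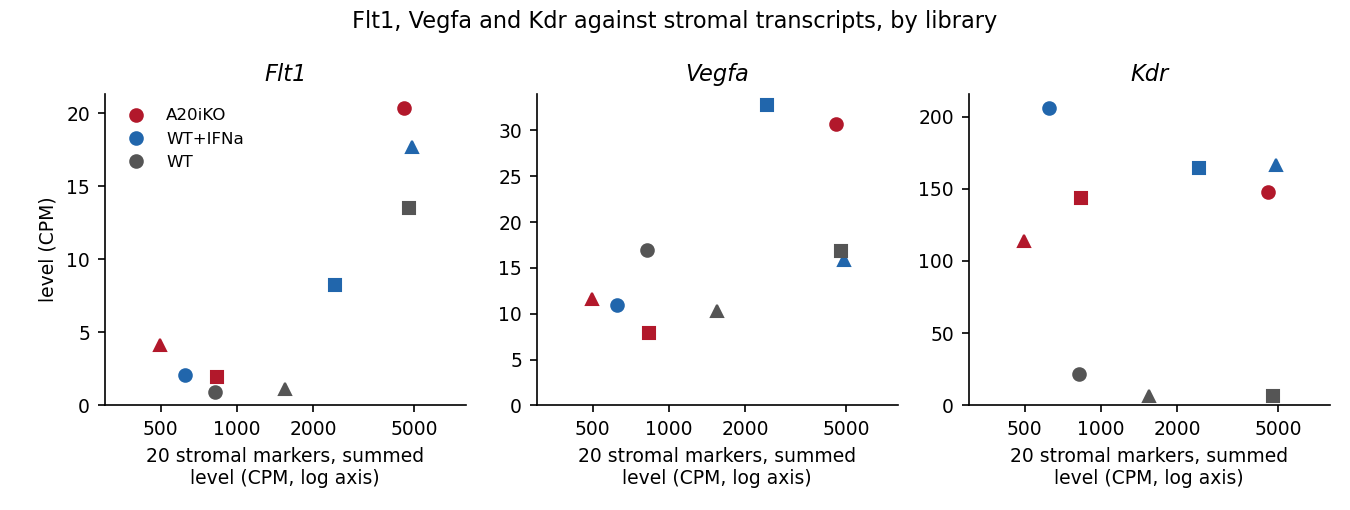
Levels of Flt1, Vegfa and Kdr (CPM, vertical axis) against the summed level of 20 stromal markers (CPM, log axis) in 9 libraries; colours are groups, and circles, squares and triangles are replicates 1, 2 and 3. The 3 libraries with 4567 to 4913 CPM of stromal markers hold Flt1 at 13.5 CPM or more. Kdr is at 114 CPM or more in every A20iKO and WT+IFNa library and at 21.4 CPM or less in every WT library.

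The ligand gene Vegfa, which encodes the principal angiogenic factor, did not pass the test in any comparison. It stood at 30.8, 7.94 and 11.6 CPM in the A20iKO libraries, 11, 32.8 and 15.9 CPM in the WT+IFNa libraries, and 17, 16.9 and 10.3 CPM in the WT libraries. A20iKO replicate 1 and WT+IFNa replicate 2 stood above all other libraries, and the groups overlapped. The means were 16.8 ± 12.3 CPM in A20iKO, 19.9 ± 11.4 in WT+IFNa and 14.7 ± 3.84 in WT. Its log2 fold change was 0.19 in A20iKO over WT (SE 0.536; edgeR adjusted p = 0.901), 0.44 in WT+IFNa over WT (SE 0.536; edgeR adjusted p = 0.851) and -0.25 in A20iKO over WT+IFNa (SE 0.535; edgeR adjusted p = 0.925). Without the 3 libraries of highest Col1a1 the Vegfa values were -0.48 in A20iKO over WT, 0.69 in WT+IFNa over WT and -1.17 in A20iKO over WT+IFNa, none past the threshold (edgeR adjusted p = 0.72, 0.702 and 0.37). No gene followed Vegfa as closely as for the other members: the highest r, for Zbtb38, was 0.89, and Rab12, Ipo9, Cbx7 and Rbm18 came next.

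Vegfb, which encodes a ligand of FLT1 and NRP1, was lowest in WT+IFNa. It stood at 24.2, 29.6 and 30.4 CPM in the A20iKO libraries, 11, 11.2 and 19 CPM in the WT+IFNa libraries, and 28.6, 23.3 and 36.3 CPM in the WT libraries. Every WT+IFNa library lay below every library of the other groups, and A20iKO and WT overlapped. The means were 28.1 ± 3.4 CPM in A20iKO, 13.8 ± 4.56 in WT+IFNa and 29.4 ± 6.52 in WT. Its log2 fold change was -1.10 in WT+IFNa over WT (SE 0.324; edgeR adjusted p = 0.108) and 1.03 in A20iKO over WT+IFNa (SE 0.324; edgeR adjusted p = 0.0951), and neither passed the threshold. Without the 3 libraries of highest Col1a1 the first value was -1.54 (edgeR adjusted p = 0.052), and the second passed at 1.43 (edgeR adjusted p = 0.0474). A20iKO over WT gave -0.07 (SE 0.318; edgeR adjusted p = 0.95). Kdr and Vegfb were the members whose WT+IFNa and WT libraries did not overlap, 2 of 6, as for 18.2% of all genes: Kdr lay above, as did 9.77%, and Vegfb below, as did 8.45%. Between A20iKO and WT+IFNa 4 of 6 did not overlap, as for 24.6% of all genes: Nrp2 and Vegfb lay above, as did 12.3%, and Kdr and Nrp1 below, as did 12.3%. The genes nearest to Vegfb in pattern were Slc33a1, Foxj3, Usp10, Ldlrad3 and Snora68, with r of 0.951 to 0.959.

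The rest of the ligand and receptor family was scarcely read. Vegfc and Vegfd, ligands of the lymphatic receptor, passed the filter at 0 to 4.55 and 0 to 2.89 CPM per library, and neither passed the test in any comparison by edgeR or DESeq2, with none at an unadjusted p under 0.05. Pgf, placental growth factor, held 17 counts or fewer in any library, and Flt4, the lymphatic receptor itself, had no count in A20iKO, 6, 0 and 3 in WT+IFNa and 2, 0 and 34 in WT.

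Other genes of the pathway were taken from 6 lists of 155 genes, of which 130 were tested. Against WT, 7 of them were higher and 14 lower in A20iKO, 16.2% of those tested against 10.7% of all genes, and their median log2 fold change was -0.01, as was that of all genes. In WT+IFNa over WT, 1 was higher and 2 lower, 2.31% against 3.1% of all genes, with medians of -0.07 and -0.02. In A20iKO over WT+IFNa, 5 were higher and 12 lower, 13.1% against 5.46% of all genes, with medians of -0.05 and 0.02.

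Among 43 tested genes of signalling below VEGF receptors, 2 were higher and 4 lower in A20iKO over WT by edgeR, 14% against 10.7% of all genes. Prkcb, a protein kinase C isoform, rose to 472 ± 53 CPM in A20iKO, against 98.1 ± 9.63 in WT, a log2 fold change of 2.27 (SE 0.156; edgeR adjusted p = 1.27e-06). Mapkapk2, the kinase downstream of p38, rose to 341 ± 47.7 CPM in A20iKO, against 151 ± 25.5 in WT. Ppp3ca, the catalytic subunit of calcineurin, fell to 270 ± 23.5 CPM in A20iKO, against 508 ± 43.4 in WT, and the calcineurin-dependent factor Nfatc2 fell to 27.1 ± 10.9 CPM, against 76.8 ± 24 in WT. The edgeR adjusted p was 0.000486 for Mapkapk2, 0.000735 for Ppp3ca and 0.00487 for Nfatc2. In A20iKO over WT+IFNa 2 of the 43 were higher and 5 lower: Prkcb and Mapkapk2 rose (log2 fold change 2.75 and 1.03) and Ppp3ca and Nfatc1 fell (-0.84 and -1.12), with edgeR adjusted p = 1.24e-06, 0.00239, 0.00257 and 0.00806. For WT+IFNa over WT none of the 43 passed by edgeR, 4 had an unadjusted p under 0.05 and 1 passed with DESeq2.

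Of 19 tested genes that control the Vegfa gene or its message, 3 fell in A20iKO and none rose by edgeR, both against WT and against WT+IFNa, 15.8% in each comparison against 10.7% and 5.46% of all genes. With DESeq2 3 fell and 1 rose against WT, and 4 fell and none rose against WT+IFNa. The 3 called by edgeR were Zfp36 and Zfp36l2, which encode proteins that speed the decay of AU-rich messages, and Vhl, which marks hypoxia-inducible factors for destruction. Zfp36 was at 325 ± 39 CPM in A20iKO, 579 ± 49.4 in WT+IFNa and 791 ± 164 in WT, a log2 fold change of -1.28 over WT (SE 0.166; edgeR adjusted p = 0.000238). Vhl was at 28.8 ± 4.36 CPM in A20iKO, 59.4 ± 9.09 in WT+IFNa and 76 ± 9.12 in WT, a log2 fold change of -1.40 over WT (SE 0.217; edgeR adjusted p = 0.000904). Zfp36l2 was at 63.5 ± 12.2, 148 ± 17.6 and 136 ± 28.9 CPM in the same groups (edgeR adjusted p = 0.00363 over WT). Against WT+IFNa, Vhl lost its call without A20iKO replicate 3, without WT+IFNa replicate 1 and without the 3 libraries of highest Col1a1 (edgeR adjusted p = 0.0626, 0.0565 and 0.0826), and Zfp36 without A20iKO replicate 2, where the adjusted p was 0.050002 by edgeR. None of the 19 passed in WT+IFNa over WT, by edgeR or DESeq2, with 4 at an unadjusted p under 0.05.

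Of 12 tested transcription factors known to act on the Kdr gene in endothelium, 2 fell in A20iKO over WT and none rose by edgeR, 16.7% against 10.7% of all genes; with DESeq2 3 fell and 2 rose. Tal1 and Erg, factors of blood and vessel cells, were above WT in all A20iKO libraries without passing by edgeR: Tal1 was at 4.87 ± 0.906 CPM in A20iKO and 0.493 ± 0.454 in WT (adjusted p = 0.123), and Erg at 5.43 ± 2.48 in A20iKO and 0.459 ± 0.395 in WT (adjusted p = 0.16), both named after their values were seen. Fli1, an ETS factor, was at 60 ± 7.03 CPM in A20iKO, 138 ± 17.9 in WT+IFNa and 135 ± 9.35 in WT, a log2 fold change of -1.17 over WT (SE 0.172; edgeR adjusted p = 0.000627). Klf2 was at 32.9 ± 5 CPM in A20iKO and 59 ± 5.81 in WT (edgeR adjusted p = 0.0367), and its call was lost without any 1 of 7 libraries and without the 3 of highest Col1a1, with edgeR adjusted p up to 0.143. In A20iKO over WT+IFNa Fli1 fell (log2 fold change -1.20, edgeR adjusted p = 0.00102) and so did Lmo2, a cofactor of blood and vessel development (-0.87, edgeR adjusted p = 0.0167). The call of Lmo2 was lost without A20iKO replicate 2 or 3 or WT+IFNa replicate 1 or 2, with edgeR adjusted p up to 0.0979. In WT+IFNa over WT none of the 12 passed by edgeR, 2 had an unadjusted p under 0.05 and 2 passed with DESeq2.

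Among 25 tested semaphorins, plexins and their partners, 1 rose and 2 fell in A20iKO over WT by edgeR, 12% against 10.7% of all genes, a share near that of any gene. Sema4d, a semaphorin of immune cells that signals through plexin B receptors, rose to 203 ± 35.2 CPM in A20iKO and 172 ± 30.1 in WT+IFNa, against 80.2 ± 24 in WT. Its log2 fold change was 1.34 in A20iKO (SE 0.227; edgeR adjusted p = 0.00178) and 1.10 in WT+IFNa (SE 0.226; edgeR adjusted p = 0.016). The second call was lost without WT+IFNa replicate 1 or 2 or WT replicate 3, with edgeR adjusted p up to 0.0923. Dpysl2, a mediator of semaphorin signals to the cytoskeleton, fell to 120 ± 14.9 CPM in A20iKO, against 201 ± 14.8 in WT (edgeR adjusted p = 0.00569). Sema4c fell to 24.4 ± 5.65 CPM in A20iKO, against 77 ± 12.7 in WT+IFNa (edgeR adjusted p = 0.00266) and 50 ± 14.5 in WT (edgeR adjusted p = 0.0264), and the call over WT was lost without A20iKO replicate 1 or 3 or WT replicate 3, with edgeR adjusted p up to 0.13. Sema6d was lowest in WT+IFNa, at 24.9 ± 7.25 CPM in A20iKO, 5.43 ± 0.967 in WT+IFNa and 19.5 ± 7.94 in WT. It passed in WT+IFNa over WT (log2 fold change -1.84, edgeR adjusted p = 0.025) and in A20iKO over WT+IFNa (2.20, edgeR adjusted p = 0.00654). The first of these was lost without WT replicate 1 and without WT+IFNa replicate 1, 2 or 3, with edgeR adjusted p up to 0.11, and without the 3 libraries of highest Col1a1 (0.0689). Over WT+IFNa 1 of the 25 rose and 2 fell in A20iKO; Dpysl2, which fell with an edgeR adjusted p of 0.0333, was no longer past the threshold without A20iKO replicate 2 or 3, any WT+IFNa library or WT replicate 1 (up to 0.16).

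Of 30 tested angiogenic ligands and receptors outside the VEGF family, 4 rose and 3 fell in A20iKO over WT by edgeR, 23.3% against 10.7% of all genes. Il1b, the inflammatory cytokine, rose to 153 ± 13.3 CPM in A20iKO, against 11.5 ± 3.16 in WT+IFNa and 7.06 ± 7.32 in WT. Its log2 fold change was 4.43 over WT (SE 0.824; edgeR adjusted p = 0.00334), 5.62 without WT replicate 1 and 3.83 without WT replicate 3. Over WT+IFNa it was 3.73 (edgeR adjusted p = 0.0139), and this call was lost without WT+IFNa replicate 1, 2 or 3 and without the 3 libraries of highest Col1a1, with edgeR adjusted p up to 0.0876. Dll4, a Notch ligand that VEGF induces in vessel tips, held 94, 79 and 114 counts in the A20iKO libraries, none in WT+IFNa and 1, 2 and 0 in WT. It was at least 90.5-fold higher in A20iKO than in WT+IFNa, computed against 3 counts over the group, and the ratio of summed counts to WT, scaled for library size, was 102 (95% exact interval 34.4 to 495, counting error only). The fitted log2 fold change over WT, which rests on 3 WT counts, was 6.43, and it was 7.44 without WT replicate 2 and 7.38 without the 3 libraries of highest Col1a1. Dll4 passed the test in both comparisons, with edgeR adjusted p = 0.00677 over WT and 0.00432 over WT+IFNa. Cxcr4, the receptor of CXCL12, rose to 94.8 ± 7.86 CPM in A20iKO, against 27.8 ± 12.7 in WT (edgeR adjusted p = 0.00152). In WT+IFNa Cxcr4 was in between, at 56 ± 4.3 CPM, which did not pass over WT (log2 fold change 1.01, edgeR adjusted p = 0.0991). Eng, the TGF-beta co-receptor endoglin and also an endothelial marker, was at 4.75 ± 1.94 CPM in WT+IFNa, not past the threshold over WT (edgeR adjusted p = 0.309). It rose to 16.4 ± 5.7 CPM in A20iKO, against 1.42 ± 1.33 in WT (log2 fold change 3.50, edgeR adjusted p = 0.00812). It was 4.59 without WT replicate 3, and without the 3 libraries of highest Col1a1 the call was lost (edgeR adjusted p = 0.0763). Egfl7, the other endothelial marker past the threshold, was at 22 ± 11.9 CPM in A20iKO and 4.4 ± 1.76 in WT (edgeR adjusted p = 0.0315) and was named after its values were seen. The gene past the threshold in WT+IFNa over WT was Pdgfb, a growth factor for pericytes, at 35.1 ± 2.79 CPM in WT+IFNa and 68 ± 15.6 in WT (edgeR adjusted p = 0.0428). Its call was lost without any 1 of 8 libraries, A20iKO libraries included since all 9 share the spread, and without the 3 libraries of highest Col1a1 (edgeR adjusted p = 0.27). Over WT+IFNa Dll4 and Il1b were the 2 of 30 that rose in A20iKO, and none fell by edgeR.

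**Figure D5:**
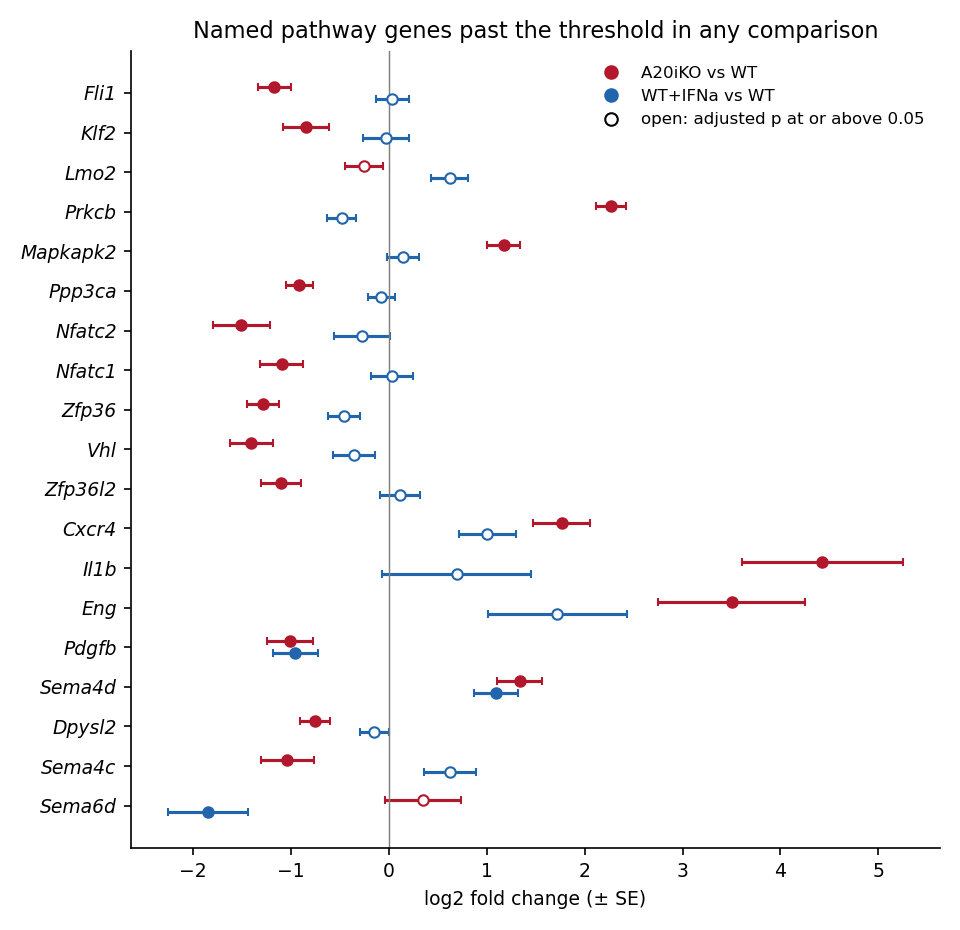
Log2 fold changes with SE (horizontal axis) of the pathway genes named here, in A20iKO over WT and in WT+IFNa over WT; filled points have an edgeR adjusted p under 0.05, and Dll4, with 3 counts or fewer in WT and in WT+IFNa, is left out. Sema4d and Pdgfb are filled in both comparisons, and Sema6d in WT+IFNa only.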

How the data were processed

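Libraries were made with the QuantSeq 3′ mRNA-Seq FWD kit, per the labels' protocols. The values the authors deposited are whole-number counts per gene symbol, not normalized. The submitters' processing notes name fastp 0.23.1, Bowtie2, STAR 2.7.10b, featureCounts 2.0.6 and build GRCm39, and no source used here gives the annotation, strand setting or handling of multiply mapped reads, so counts of overlapping or antisense genes are uncertain. Groups and replicate numbers came from the titles. No library was left out.

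Low genes were removed by filterByExpr in edgeR (minimum count 10, minimum total 15), which left 99.8% of counts. One edgeR 4.0.16 quasi-likelihood fit in R 4.3.3 held all 9 libraries (6 residual degrees of freedom, common biological coefficient of variation 0.554), with Benjamini-Hochberg adjustment over 13251 genes. SEs were derived from the F statistic. The fit was also run on simulated counts of smaller spread than these data, with no stromal difference between libraries. That run checks the code and not how well the fit suits these data. No 2 libraries of a group agreed within sampling noise (chi-square per degree of freedom 14.4 or more).

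The 6 genes, the lists and the rule for named genes were chosen with earlier results of these data known. That rule names all 6 genes, up to 4 genes past the threshold per pathway list and comparison by smallest p where the higher group averaged 5 CPM or more, and the 5 genes of highest correlation with each member. Endothelial, stromal and other markers, Tnfaip3 and Col1a1 are named outside it. Alternatives were other scaling, other filters, DESeq2 1.42.0, fewer libraries, a stromal covariate and a replicate block. Counting intervals cover counting error only.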

Additional observations from a re-analysis of the deposited data

How the results depend on the processing

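Kdr in both comparisons with WT, and Nrp2 in both comparisons of A20iKO, passed in each of 18 alternatives (other scaling or filters, DESeq2, subsets of libraries, a stromal covariate, a replicate block), with adjusted p up to 0.0014 and 0.000813 for Kdr and 0.00991 and 0.0115 for Nrp2. Nrp1 in A20iKO over WT passed in 14. Its call in A20iKO over WT+IFNa was gained with 3 settings and that of Vegfb with 1, so the members called there were 2 with DESeq2, with the stromal covariate or without the 3 libraries of highest Col1a1, and 1 to 2 with single libraries left out. The pathway genes called were 35 with the stromal covariate in A20iKO over WT. In WT+IFNa over WT they were 5 with library size alone, 6 with no filter, 11 with the covariate, 8 with DESeq2, 1 in the 6 libraries compared, 1 without the 3 libraries of highest Col1a1 and 0 to 3 with single libraries left out (0 without WT+IFNa replicate 1 or 2, 1 without WT+IFNa replicate 3 or WT replicate 3). In A20iKO over WT+IFNa they were 10 to 18, against 17, with 10 without WT+IFNa replicate 1 and 11 without A20iKO replicate 2. Genes called over the whole table were 723 (covariate) and 700 (DESeq2) for WT+IFNa over WT, against 411, and 1257 and 1134 for A20iKO over WT+IFNa, against 723. With single libraries left out they ran from 919 to 1372 for A20iKO over WT, against 1416, and from 400 to 875 for A20iKO over WT+IFNa. Moves by over 1.5 times were 919 and 942 without A20iKO replicate 2 and 3 in the first of these, and 421, 450, 400 and 440 without A20iKO replicate 2, A20iKO replicate 3, WT+IFNa replicate 1 and WT+IFNa replicate 2 in the other. The cause of these moves was not tested, beyond the smaller number of libraries.

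With library size alone the median over all genes was -0.15 in WT+IFNa over WT and 0.12 in A20iKO over WT+IFNa, and higher genes made up 60.9% of calls (286 higher, 184 lower), against 77.4% (318 and 93), and 49.4% (370 and 379), against 37.5% (271 and 452).

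Directions that turned were all of values not past the threshold. Vegfa in A20iKO over WT was -0.0214 with the covariate, -0.48 without the 3 libraries of highest Col1a1 and -0.59 to 0.52 with single libraries left out; Nrp1 in WT+IFNa over WT was 0.0836 without those 3 libraries and -0.10 to 0.0187 with single ones left out. Flt1 in A20iKO over WT+IFNa was 0.0363 with library size alone, 0.11 with the replicate block and -1.62 to 0.82 with single libraries left out. With single libraries left out, Flt1 ran from -0.76 to 3.11 in A20iKO over WT and from -0.0074 to 3.20 in WT+IFNa over WT, Vegfb from -0.21 to 0.11 in A20iKO over WT, and Vegfa from -0.13 to 0.71 in WT+IFNa over WT and -1.03 to 0.34 in A20iKO over WT+IFNa.

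Libraries of the same replicate number did not all deviate together (correlations of deviations -0.416 to 0.288), and not every library correlated best with its own number. The main fit therefore did not pair them. With 3 libraries per group, 1 of each high in stromal transcripts, this check cannot exclude a pairing. With the replicate block, 1075, 298 and 535 genes were called in A20iKO over WT, WT+IFNa over WT and A20iKO over WT+IFNa; Nrp1 in A20iKO over WT had an edgeR adjusted p of 0.0598, and 1 pathway gene was called in WT+IFNa over WT.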
